A study of Mus musculus with 7 samples.

Results

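Histone lysine methyltransferases were followed in ovulated mouse oocytes that lacked Nlrp2 and in wild-type (WT) oocytes. The members were the gene symbols of the deposited table that start with Setd, Kmt2, Smyd, Suv39h, Suv420h, Ehmt or Nsd, that are Prdm plus a digit, or that are Dot1l, Ash1l, Whsc1 or Whsc1l1. This gave 47 of 18951 symbols. One of them, Nsdhl, encodes a sterol dehydrogenase of cholesterol synthesis and shares only its first letters with the Nsd family; it stayed in every count, and counts were repeated without it. Older symbols were kept as the table has them, namely Setd8 (now Kmt5a), Suv420h1 (Kmt5b), Suv420h2 (Kmt5c), Whsc1 (Nsd2) and Whsc1l1 (Nsd3).

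The study compared 3 WT pools with 4 Nlrp2-null pools, all from C57BL/6 females aged 4 weeks. NLRP2 is a maternal effect protein stored in the egg, and the series asks what its loss does to the oocyte transcriptome. A pool held about 150 oocytes of 1 genotype from 3 to 4 mice, freed of cumulus cells with hyaluronidase, so a value is a mean over several animals. What the null allele lacks, exon by exon, is missing from the labels. In bulk RNA of this kind, fewer cells of a type and less RNA per cell cannot be told apart.

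Lysine methyltransferases carry methyl groups from S-adenosylmethionine to lysines of histone tails, nearly all through a SET domain; DOT1L, which acts within the histone core, has none. The marks differ in use: methylated H3K4 lies at promoters and enhancers, H3K9 in silent chromatin, H3K36 along transcribed genes, H3K79 in active gene bodies and H4K20 in condensed and replicating chromatin. In growing oocytes these marks help to shape DNA methylation, and the transcripts found in an ovulated oocyte are largely a stored maternal supply, since transcription has stopped by then.

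Between 71073973 and 96330083 reads per pool stood behind the normalized counts. Nlrp2 itself, the targeted gene, had 15527, 20130 and 16792 normalized counts in WT; null pools 1 to 4 had 107, 8.19, 1.96 and 63.8. All 13 oocyte markers were detected in every pool (summed level 904212 to 979647 in WT and 960515 to 1091080 in null pools), Figla at the lowest level of 20.6 to 79.01. The 3 blood and immune markers in the table summed to 126 to 287, and the 4 oviduct markers to 212 to 416 except in null 4, at 1605. Of 28 cumulus and granulosa markers 27 were in the table, with a summed level of 120102 to 131984 in WT and 122703 to 136000 in null pools. Most of it came from Rgs2, at 79394 to 92257 in WT and 74450 to 76576 in null pools. For Rgs2 every null pool thus lay below every WT pool. The sum mainly follows this gene and says little about the other markers. Which cells the Rgs2 reads came from was not tested. Of 25 tested markers 0 were called and 19 were positive. Cyp19a1 (3431 to 5248), Vcan (3228 to 9600) and Cyp11a1 (394 to 3659) were present in every pool, Fst was at 874 to 1656 in WT and 1336 to 4001 in null pools, and Inhbb at 8.23 to 35.8 and 63.5 to 847. At 0 in some pool were 4 of the 27, Amh among them (0 to 4.91). Their mean log2 level was 9.29, 8.13 and 8.26 in WT pools and 8.57, 8.73, 9.36 and 9.77 in null pools. The library numbers fall into a lower range (WT 1, WT 2, null 1, null 2) and a higher range (WT 3, null 3, null 4), which the labels do not explain. Null 3 and null 4 lay at the far end of the first principal component (-58.8 and -96.7), opposite WT 2 (69.1) and null 1 (49.5).

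No member was called as different between genotypes by the test used. In limma, 45 of 47 members were tested, namely those averaging 10 or more normalized counts, and 0 passed at a Benjamini-Hochberg adjusted p under 0.05, where 0.0664% of all 15071 genes did. edgeR and DESeq2 on recovered reads also called 0 members (0.0464% and 1.25% of all genes). At an unadjusted p under 0.05 there were 3 members, Kmt2e, Prdm1 and Prdm16, all with higher values in null pools and 0 with lower ones. Over all genes the share was 10.2%, with 5.28% higher and 4.93% lower. Groups did not overlap in 2 members, Kmt2e and Prdm1, both higher in null pools, beside 9.91% of all genes (4.74% higher and 5.16% lower). The smallest adjusted p among members was 0.292 in limma.

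The members as a whole sat near zero difference. Log2 fold changes (null minus WT) were positive in 21 and negative in 24 of 45, beside 50.7% positive over all genes, with a median of -0.0098 beside 0.0056 over all genes. Without Nsdhl the split was 21 and 23 and the median -0.0080. With equal medians in every pool 16 of 45 were positive, where the share over all genes was 43.4% and the median over all genes was -0.054. In 29 of 45 members the 95% interval lay within a 1.5-fold change either way, which held for 35.9% of all genes. Level set how narrow it was: this held for 28 of the 29 members with a mean of at least 1000 and for 1 of the 16 below. For the lower members a sizeable difference was thus not detectable, and their result does not show that the genotypes are alike.

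**Figure D1:**
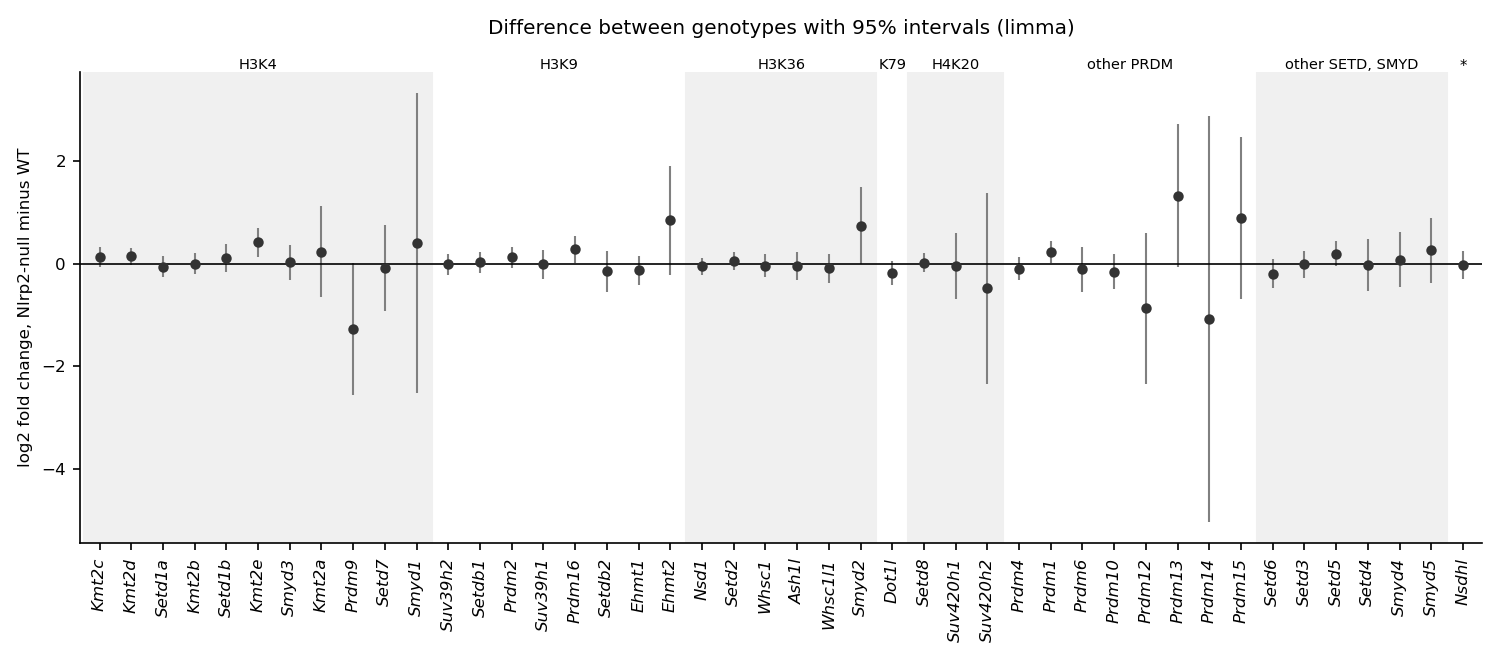
Log2 fold change, Nlrp2-null minus WT, of 44 of the 45 tested members (vertical axis) by the residue they act on (bands), with points for the limma estimate and bars for its 95% interval; the star marks Nsdhl. Intervals are narrow for abundant members such as Kmt2c and Nsd1 and wide for rare ones such as Prdm14 and Smyd1, and only those of Kmt2e, Prdm1 and Prdm16 lie off zero.

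Among the H3K4 enzymes the large MLL3 and MLL4 genes were the most abundant. Per kilobase of merged exon, which is the scale used wherever genes are set against each other, Kmt2c stood at 4682 and Kmt2d at 2408 in WT pools; both encode enzymes that place H3K4 monomethylation at enhancers. Setd1a followed at 1689, Kmt2b at 965, Setd1b at 329, Kmt2e at 305 and Smyd3 at 270. Kmt2b encodes the enzyme that lays down most H3K4 trimethylation in growing oocytes, and SETD1A and SETD1B are the catalytic subunits of the SET1 complexes. Kmt2a, Prdm9 and Setd7 were low, at 49.3, 48.1 and 44.6, and the muscle gene Smyd1 was at 6.06.

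Kmt2c is a gene of chromosome 5 (GRCm38, 25271798 to 25498783 on the minus strand). Normalized counts of this gene were 86728, 92014 and 106240 for WT, against 96840, 93880, 117488 and 108388 for null pools 1 to 4, and the groups overlapped. The log2 fold change was 0.13 (95% interval -0.063 to 0.33, limma adjusted p = 0.670). It depended on single pools, at 0.011 without null 3 and null 4, 0.072 without null 3, 0.069 without WT 1 and 0.22 without WT 3, and was 0.073 with equal medians. Kmt2d ran from 47100 to 49565 in WT and from 49376 to 57384 in null pools, so that the lowest null pool fell below the highest WT pool (0.15, interval -0.019 to 0.32, limma adjusted p = 0.554). For Kmt2b the groups covered each other, at 8863 to 9643 in WT and 8479 to 10073 in null pools (0.0038, interval -0.20 to 0.21). Setd1a had -0.06 (interval -0.26 to 0.14) and Setd1b 0.11 (interval -0.16 to 0.38).

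Kmt2e, which encodes MLL5, a SET protein that binds methylated H3K4 and for which methyltransferase activity is doubtful, had the smallest p of all members. Its place is the plus strand of chromosome 5, 23434441 to 23504235. Normalized counts of 3533, 3023 and 2994 were found in WT and of 3563, 4130, 4780 and 4647 in null pools 1 to 4. Means came to 3183 ± 303 (SD, n = 3) and 4280 ± 554 (SD, n = 4), and each of the 4 null pools exceeded each of the 3 WT pools, null 1 by a narrow margin over WT 1. The log2 fold change was 0.42 (SE 0.132, interval 0.14 to 0.70), a fold of 1.34, with a limma adjusted p of 0.292. DESeq2 gave an adjusted p of 0.0929. The difference was 0.23 among pools of the lower range and 0.65 in the higher range, which has 1 WT pool. Its peak values fell in null 3 and null 4, whose mean log2 level of cumulus markers was also at the top of the 7 pools (9.36 and 9.77). WT 1, with a marker mean of 9.29, held 3533. A fit with that marker mean as covariate gave a log2 fold change of 0.28 (limma adjusted p = 0.533). Without null 3 and null 4 it was 0.27 (limma adjusted p = 0.701). These pools share the higher library-number range as well as high marker means. WT 3, in the higher range with a marker mean of 8.26, held 2994. With the range as covariate the log2 fold change was 0.40 (limma adjusted p = 0.373). The cause of the difference was not tested. Kmt2e shares exon bases with Srpk2 on the opposite strand, which stood at 16418 ± 1463 and 16249 ± 787; the strand setting of the counting is unknown from the sources used here.

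Prdm9, whose protein marks the sites of meiotic recombination with H3K4 and H3K36 trimethylation, was even across WT pools and uneven across null pools. It stood at 200.1, 214 and 207 in WT and at 200.5, 130, 25.5 and 78.5 in null pools 1 to 4. Null 1 was within the WT range and the other null pools were below it. The log2 fold change was -1.27 (SE 0.607, interval -2.56 to 0.019, limma adjusted p = 0.499). The difference was -0.36 in the lower and -2.18 in the higher range of library numbers, -0.70 without null 3 and -0.36 without null 3 and null 4.

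Kmt2a, which encodes MLL1, varied between pools far more than other genes of its level. Its values were 1081, 625 and 758 in WT and 319, 981, 1636 and 1549 in null pools. The SD between pools of a genotype was 0.88 on the log2 scale, where genes within 2-fold of its mean had a median of 0.27. It was lowest in null 1 and WT 2 and highest in null 3 and null 4. Setd7, an H3K4 monomethylase that also acts on other proteins, was likewise lowest in null 1 (211) and WT 2 (244), and reached 624 in WT 1 and 626 in null 3. Suv420h1 was lowest in the same pools, at 392 in null 1 and 482 in WT 2, and reached 995 in WT 1 and 894 in null 3. Kmt2a held 1081, 1636 and 1549 in WT 1, null 3 and null 4, at cumulus marker means of 9.29, 9.36 and 9.77. The other pools lay lower in both. Among them null 1 had 319 and WT 2 had 625, at marker means of 8.57 and 8.13. For Setd7 and Suv420h1, null 4 had 490 and 666, close to null 2 with 489 and 659 at a marker mean of 8.73. The part of cumulus cells in the values of these 3 genes was not tested. In all, 7 of 45 members had an SD above 1.5 times that of genes of like level (Kmt2a, Setd7, Smyd1, Prdm6, Suv420h1, Prdm15 and Prdm9), a description made after the values were seen. Over all 15071 genes 15.4% did so, much as among the members, and 18 of 45 members lay under the median of their level, beside 49.7% of all genes.

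**Figure D2:**
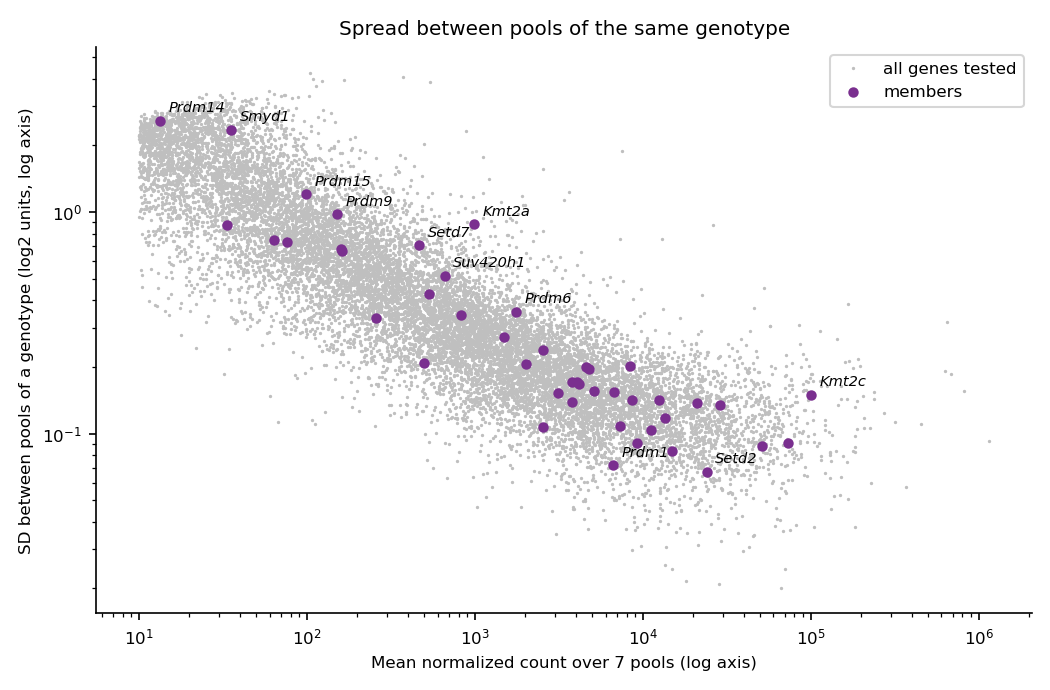
SD between pools of the same genotype (log2 units, log axis) against the mean normalized count (log axis) for all 15071 tested genes in grey and the 45 tested members in purple. Kmt2a (0.88) stands above the cloud at its level, while Prdm1 (0.072) and Setd2 (0.067) are among the steadiest members.

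The H3K9 enzymes were led by Suv39h2 and Setdb1. In WT pools Suv39h2 stood at 4775 ± 166 and Setdb1 at 4153 ± 446 per kilobase, followed by Prdm2 at 1738, Suv39h1 at 876, Prdm16 at 493, Setdb2 at 391 and Ehmt1 at 328. SUV39H1 and SUV39H2 trimethylate H3K9 at pericentric repeats, and SETDB1 silences retrotransposons together with TRIM28. Ehmt2, the gene of G9a, was at 21.6, far under its partner Ehmt1, the gene of GLP. Prdm8 had 1 read in WT 3 and 0 in the other pools, where a count of 0 allows up to 3 reads, and was not tested.

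Setdb1 held 25653, 31718 and 28016 normalized counts in WT and 32079, 28300, 29091 and 26267 in null pools, with full overlap (0.03, interval -0.17 to 0.22, limma adjusted p = 0.950). It shares exon bases with Cers2 on the opposite strand. For Suv39h2 the difference was -0.01 (interval -0.22 to 0.19), and the opposite-strand Dclre1c, with which it overlaps, averaged 2424 ± 271 for WT against 3413 ± 523 for null pools (a difference of 0.49 on the log2 scale, SE 0.149, limma adjusted p = 0.289). Suv39h1 gave -0.0098 (interval -0.30 to 0.28) and Ehmt1 -0.13 (interval -0.41 to 0.15). Ehmt2 ranged from 50.4 to 170 in WT and from 135 to 274 in null pools (0.85, interval -0.21 to 1.91), a range too wide for a difference to be read.

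Prdm16, a zinc finger protein with H3K9 monomethylase activity and a role in stem cells and brown fat, was on chromosome 4 (154316125 to 154636873, minus strand). It was at 4530, 5112 and 4131 in WT and at 5792, 5015, 5152 and 6336 in null pools, so that WT 2 lay above null 2. The means were 4591 ± 494 (SD, n = 3) and 5574 ± 611 (SD, n = 4), and the log2 fold change was 0.28 (SE 0.121, interval 0.022 to 0.54, limma adjusted p = 0.453). The difference was 0.16 in the lower and 0.47 in the higher range of library numbers.

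Of the H3K36 enzymes, Nsd1 had the smallest standard error of all members (0.0778). It stood at 4283 per kilobase in WT pools and Setd2 at 2184, ahead of Whsc1 at 752, Ash1l at 569, Whsc1l1 at 300 and Smyd2 at 68.4. SETD2 makes H3K36 trimethylation and is needed for the DNA methylation pattern of the oocyte, while NSD1, the product of Whsc1 and ASH1L make the dimethyl mark. Nsd1 held 73308, 79886 and 71468 normalized counts in WT and 71834, 70919, 79191 and 67817 in null pools (-0.05, interval -0.21 to 0.12, limma adjusted p = 0.869), and its estimate ran from -0.11 to -0.0012 over the alternatives. Setd2 held 23004 to 23916 in WT and 23124 to 25775 in null pools (0.05, interval -0.12 to 0.22). Both intervals stay within a 1.5-fold change.

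Smyd2, a methyltransferase of H3K36 and of p53, was low. Its values were 233, 155 and 170 in WT and 337, 354, 214 and 349 in null pools, where null 3 fell between the WT values. The means were 186 ± 41.4 and 314 ± 66.9, with a log2 fold change of 0.75 (SE 0.355, interval -0.0079 to 1.5, limma adjusted p = 0.498).

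Dot1l, the only H3K79 enzyme, was at 7783, 9798 and 10144 in WT and at 8639, 8257, 7912 and 7733 in null pools. WT 1 lay below 3 of the null pools, so the groups overlapped (-0.18, interval -0.41 to 0.055, limma adjusted p = 0.622). The value was -0.29 without WT 1 (limma adjusted p = 0.315), -0.10 without WT 3 and -0.061 with the cumulus covariate. Among the H4K20 enzymes the monomethylase gene Setd8 dominated, at 2793 per kilobase in WT against 46.1 for Suv420h1 and 9.61 for Suv420h2, whose products add the second and the third methyl group. Setd8 held 15626, 14380 and 14459 normalized counts in WT and 15661, 13773, 14835 and 15860 in null pools (0.02, interval -0.17 to 0.21, limma adjusted p = 0.963).

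**Figure D3:**
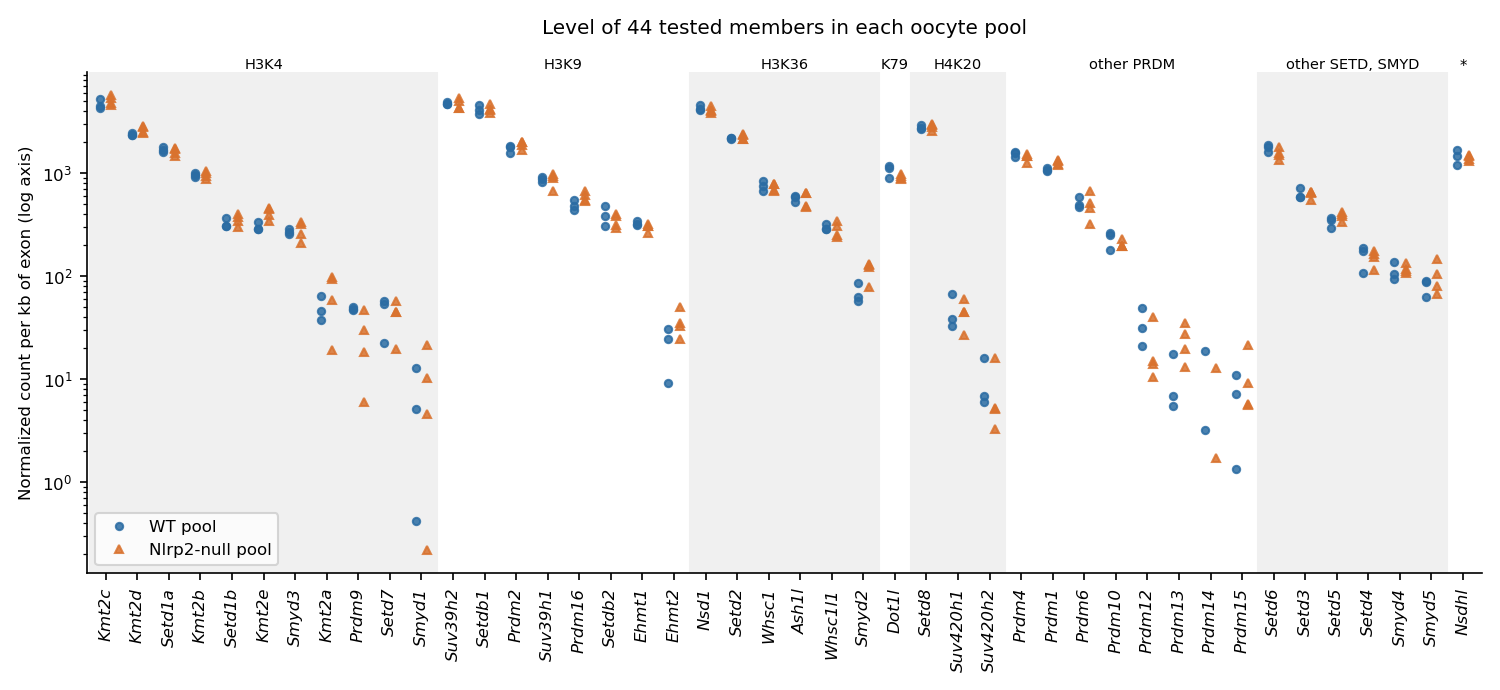
Normalized count per kilobase of merged exon (log axis) of 44 of the 45 tested members in the 3 WT pools (blue circles) and the 4 Nlrp2-null pools (orange triangles), in bands by residue; the star marks Nsdhl, and values of 0 (3 pools of Prdm14) are not drawn. Kmt2c, Suv39h2, Setdb1 and Nsd1 lie highest, between 4153 and 4775 in the WT mean, and the circles and triangles of most members overlap.

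PRDM proteins pair a PR domain, a relative of SET, with zinc fingers, and many act as transcription factors without methyltransferase activity. Of the 10 members in this class, 9 were tested. Prdm4 was highest at 1534 per kilobase in WT, followed by Prdm1 at 1088, Prdm6 at 518 and Prdm10 at 232; Prdm12, Prdm13, Prdm14 and Prdm15 were between 6.48 and 33.9. Prdm11 had 24 reads in WT 3 and 0 in the other pools, and was not tested. Prdm14, a regulator of primordial germ cells, had 46 reads in WT 1, 10 in WT 3, 4 in null 1, 32 in null 2 and 0 in the other pools.

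Prdm1 encodes BLIMP1, which specifies primordial germ cells. It lies on chromosome 10 (44437177 to 44528501, minus strand) and had no exon overlap with another annotated gene. Its values were 5910, 6064 and 6239 in WT and 7399, 6664, 7581 and 6871 in null pools, so that every null value exceeded every WT value. The means were 6071 ± 165 (SD, n = 3) and 7129 ± 432 (SD, n = 4), with a log2 fold change of 0.23 (SE 0.0998, interval 0.018 to 0.44), a fold of 1.17. It did not pass (limma adjusted p = 0.453, DESeq2 adjusted p = 0.279). The difference was 0.23 in the lower and 0.21 in the higher range of library numbers, and 0.24 after adding the cumulus mean as covariate. With equal medians in every pool it was 0.17 (limma adjusted p = 0.682), the lowest value over 19 alternatives.

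Prdm4 held 7022, 7738 and 7858 normalized counts in WT and 7181, 7309, 7550 and 6248 in null pools, with overlap (-0.09, interval -0.31 to 0.13, limma adjusted p = 0.806). The estimate ran from -0.15 with equal medians to -0.022 with the cumulus covariate, and was -0.036 without null 4 and -0.14 without WT 1. Prdm13, known from neural development, was at 23.2, 29.5 and 75.7 in WT and at 84.5, 150, 118 and 55.5 in null pools, where null 4 fell below WT 3. Its log2 fold change was 1.33 (SE 0.660, interval -0.071 to 2.73, limma adjusted p = 0.517). It was 2.06 in the lower and 0.093 in the higher range of library numbers.

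**Figure D4:**
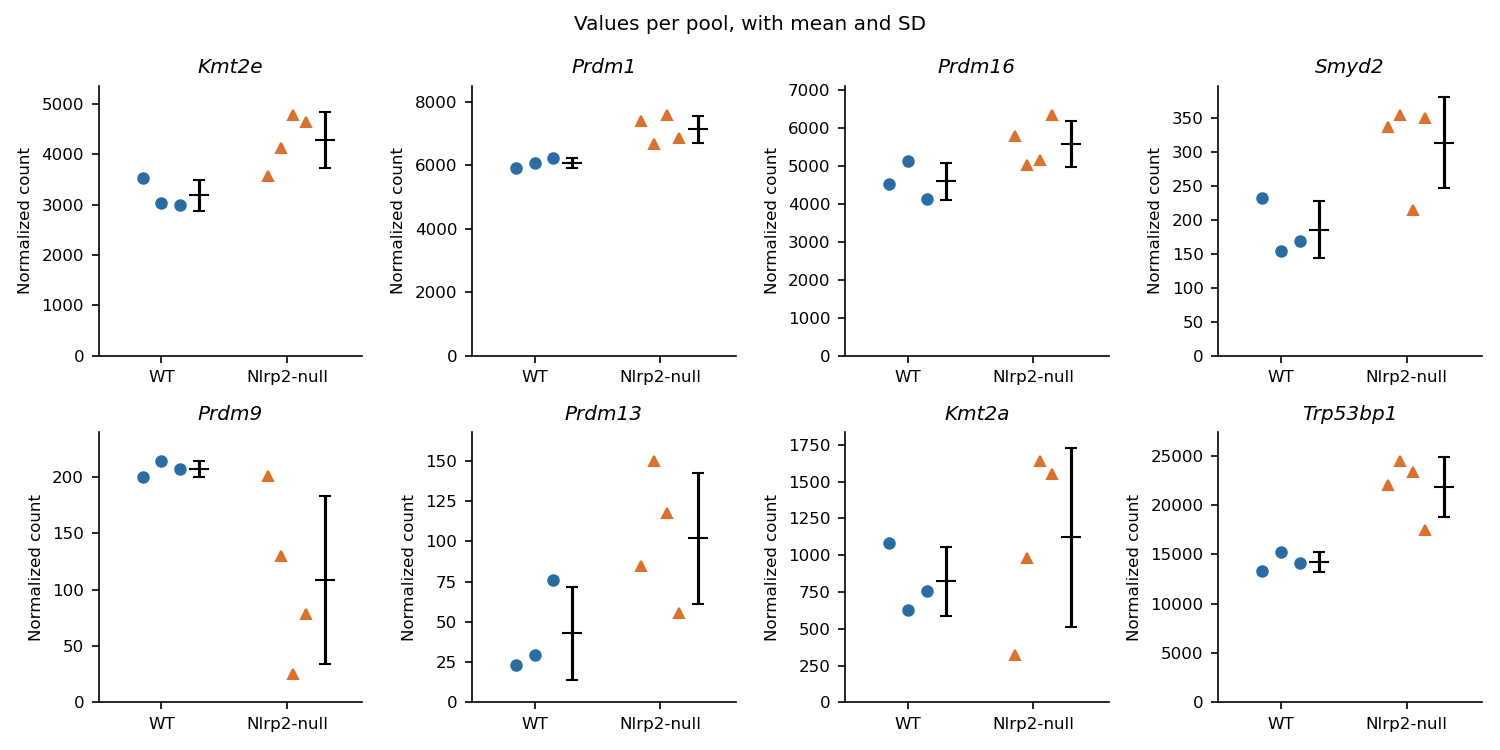
Normalized counts (vertical axes, from 0) in 3 WT pools (blue circles) and 4 Nlrp2-null pools (orange triangles) for the 6 members with the smallest p, for Kmt2a and for the H4K20 reader gene Trp53bp1; black marks give the mean and SD. Kmt2e, Prdm1 and Trp53bp1 show no overlap, while Prdm9 and Kmt2a spread widely among null pools.

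The other SETD and SMYD members include enzymes that act on proteins other than histones, such as SETD3, which methylates actin, and SETD6, which methylates the NF-kappaB subunit RelA. Per kilobase they ranged from 80.4 (Smyd5) to 1770 (Setd6) in WT pools. Setd5, the one with the highest count, held 6425, 5345 and 6791 in WT and 7064, 6213, 7654 and 7425 in null pools, with overlap at null 2 (0.20, interval -0.046 to 0.44, limma adjusted p = 0.597). It was 0.097 without WT 2, 0.11 without null 3 and null 4 and 0.13 with the cumulus covariate. Setd6 gave -0.20 (interval -0.48 to 0.088) and Setd3 -0.0062 (interval -0.27 to 0.26). Nsdhl held 4806, 4204 and 3425 in WT and 4280, 4221, 3724 and 3943 in null pools (-0.02, interval -0.30 to 0.25, limma adjusted p = 0.966).

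By class, the H3K4 enzymes had 8 positive and 3 negative log2 fold changes with a median of 0.11, and with equal medians in every pool 6 of the 11 were positive. The H3K9 enzymes were split 4 and 4 (median 0.0079), and 2 of 6 H3K36 enzymes were positive (median -0.04). Of the 9 other PRDM genes 3 were positive (median -0.11). Summed per kilobase, the H3K4 members came to 10796 ± 626 in WT and 11589 ± 614 in null pools. The H3K9 members came to 12774 ± 795 and 13041 ± 778, and the H3K36 members to 8158 ± 294 and 8101 ± 390. The pools of both groups overlapped in each of these sums. All members together took 0.562% to 0.564% of the normalized counts in WT pools, 0.552% and 0.570% in null 2 and null 1, and 0.605% in both null 3 and null 4.

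Related enzymes kept a stable order within pools. Suv39h2 exceeded Suv39h1 by 4.72 to 6.37 times per kilobase over the 7 pools, Setd1a exceeded Setd1b by 4.24 to 5.83 times, and Kmt2c exceeded Kmt2d by 1.69 to 2.29 times. Setdb1 was 9.53 to 15.9 times Setdb2, and Whsc1 was 2.00 to 3.28 times Whsc1l1. Looser ratios were found where Kmt2a, Ehmt2 or Suv420h2 was the lesser member. Kmt2b was 9.51 to 52.1 times Kmt2a, Ehmt1 was 6.17 to 37.8 times Ehmt2, and Suv420h1 was 2.38 to 9.86 times Suv420h2. No pair changed its order in any pool, and the ratios of WT and null pools overlapped in each of the pairs plotted. These ratios rest on annotated exon lengths, not on the isoforms present, and are given without a test.

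**Figure D5:**
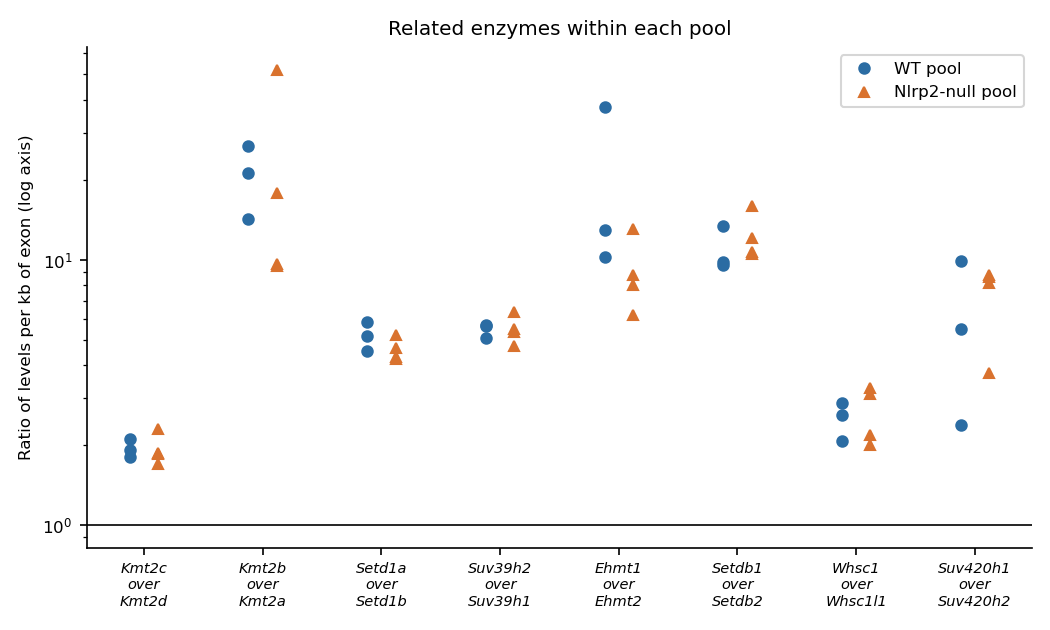
Ratio of the levels per kilobase of exon (log axis) of 8 pairs of related enzymes in each WT pool (blue circles) and Nlrp2-null pool (orange triangles); the line marks equal levels. All points lie above the line, and the spread is narrow for Suv39h2 over Suv39h1 (4.72 to 6.37) and wide for Kmt2b over Kmt2a (9.51 to 52.1).

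Against all genes, the members were of more than middling abundance. Of 45 tested members 30 lay above the 50th percentile of the level per kilobase in WT pools and 6 above the 90th percentile (Suv39h2, Kmt2c, Nsd1, Setdb1, Setd8 and Kmt2d), with a median percentile of 63.6 over 14932 tested genes with an exon length. The starts of these genes were also rich in CG dinucleotides. RefSeq windows of the 250 bases before an annotated start (build GRCm38.p6) were matched for 35 of the 47 members, 45 windows in all, with a median of 22 CG dinucleotides beside 6 over all 32851 windows. At least 15 of them stood in 30 of 45 member windows (66.7%) and in 27.3% of all windows. Taking the richest window per gene, the medians were 25 for members and 15 for tested genes, a smaller contrast. CG reads the same on both strands, and which start the oocyte uses was not tested.

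To show that range, 3 windows are printed 5′ to 3′ with each CG in capitals: Kmt2c as the member with the highest count, Prdm1 as a member whose groups did not overlap, and Smyd1 as a rare member. They lie on the minus strand at chr5:25498784-25499033, chr10:44458749-44458998 and chr6:71262282-71262531, and hold 48, 15 and 2 CG. The Kmt2c window adjoins the outer end of the annotated gene span. Those of Prdm1 and Smyd1 lie inside the spans of their genes, which end at 44528501 and 71322233, and so stand before an internal annotated start.
Kmt2c: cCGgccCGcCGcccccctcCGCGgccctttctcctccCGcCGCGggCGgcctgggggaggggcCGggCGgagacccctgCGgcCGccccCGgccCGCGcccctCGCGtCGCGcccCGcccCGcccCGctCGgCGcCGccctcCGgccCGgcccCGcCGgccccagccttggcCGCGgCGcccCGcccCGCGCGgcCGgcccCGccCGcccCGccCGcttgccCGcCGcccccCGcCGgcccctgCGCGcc
Prdm1: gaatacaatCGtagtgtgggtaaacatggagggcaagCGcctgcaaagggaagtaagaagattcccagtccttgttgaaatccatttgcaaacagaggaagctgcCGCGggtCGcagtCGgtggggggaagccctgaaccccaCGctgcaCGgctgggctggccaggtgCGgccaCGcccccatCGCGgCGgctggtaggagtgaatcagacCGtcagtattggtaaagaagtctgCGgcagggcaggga
Smyd1: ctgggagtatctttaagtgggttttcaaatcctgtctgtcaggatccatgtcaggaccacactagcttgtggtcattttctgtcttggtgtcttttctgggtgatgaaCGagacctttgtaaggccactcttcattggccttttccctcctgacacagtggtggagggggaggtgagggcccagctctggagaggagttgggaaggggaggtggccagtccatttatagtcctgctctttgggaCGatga
CG content did not follow the level in every matched window: those of Setd5, which held 5345 to 7654 normalized counts, and of Kmt2a, which held 319 to 1636, had 0 and 29 CG. The Setd5 window (chr6:113104685-113104934) lies inside the annotated gene span (113077365 to 113153435, plus strand). No window was matched at the outer start of Setd5, so its CG content there is not known here.

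Genes that work with these enzymes were read from 5 lists, with 69 genes tested, and limma called 0 of them, where 0.0664% of all genes were called. Over all genes 5.28% had an unadjusted p under 0.05 upward and 4.93% downward in limma. These are the shares to set beside the count of each list below, and the counts are too small to be told from them. Groups did not overlap in 4.74% of all genes upward and 5.16% downward. Such genes numbered 1 and 0 among COMPASS and MLL subunits, and 0 and 2 among H3K9 partners. In the H3K36, H3K79 and H4K20 list they numbered 2 and 2, in S-adenosylmethionine supply 0 and 0, and in the enzymes outside the symbol rule 1 and 1. These counts too are too small to be told from the shares. Of 15 subunits of the COMPASS and MLL complexes 1 had an unadjusted p under 0.05 upward and 1 downward. The upward one was Kdm6a, an H3K27 demethylase of the MLL3 and MLL4 complexes (58948 ± 3908 in WT, 66282 ± 2855 in null pools, limma adjusted p = 0.466), whose groups did not overlap. The downward one was Psip1, a chromatin tether of MLL1 (69479 ± 6068 and 59309 ± 4132, limma adjusted p = 0.377), whose groups overlapped. Of 14 H3K9 partners and HP1 genes 0 had an unadjusted p under 0.05 upward and 1 downward, namely Cbx1, the HP1beta gene. It was at 5224, 4391 and 4341 in WT and at 3718, 3648, 3379 and 3238 in null pools. Every null value was under every WT value (-0.41, SE 0.120, limma adjusted p = 0.252, DESeq2 adjusted p = 0.0535). Pphln1, a subunit of the HUSH silencing complex, had -0.18 (SE 0.0883, limma adjusted p = 0.509).

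Trp53bp1 stood out among 20 partners and readers of H3K36, H3K79 and H4K20 methylation, of which 2 had an unadjusted p under 0.05 upward and 1 downward. Its product, 53BP1, binds dimethylated H4K20, the mark made by the SUV420H enzymes, at DNA breaks. The gene lies on chromosome 2 (121193281 to 121271407, minus strand). It held 13333, 15298 and 14129 normalized counts in WT and 22071, 24439, 23379 and 17487 in null pools, with no overlap. The means were 14253 ± 988 (SD, n = 3) and 21844 ± 3062 (SD, n = 4), a log2 fold change of 0.61 (SE 0.109, interval 0.37 to 0.84). It missed the threshold in limma (adjusted p = 0.0572) and edgeR (adjusted p = 0.101) and passed in DESeq2 (adjusted p = 5.97e-05, all settings 5.97e-05 to 0.470). It also passed after adding the cumulus mean as covariate (limma adjusted p = 0.00312), in robust limma (adjusted p = 0.0446) and without null 4 (limma adjusted p = 0.0297). It missed the threshold in all other settings, among them equal medians (limma adjusted p = 0.258), without null 3 (limma adjusted p = 0.307) and without WT 3 (limma adjusted p = 0.326). Its log2 fold change ran from 0.55 to 0.72 over 19 alternatives. It shares exon bases with Tubgcp4 on the opposite strand, which was at 199 in the WT mean and 323 in the null mean. Morf4l2, a relative of the H3K36 reader gene Morf4l1, was the other upward one (0.35, SE 0.118, limma adjusted p = 0.324). Zmynd11, a reader of H3K36 trimethylation named after its values were seen, was the downward one (-0.44, SE 0.168, limma adjusted p = 0.390).

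Of 16 tested genes of S-adenosylmethionine supply 0 had an unadjusted p under 0.05 upward and 2 downward. Ahcyl2, a relative of the S-adenosylhomocysteine hydrolase gene, averaged 3266 ± 515 for WT against 2330 ± 318 for null pools (a difference of -0.48 on the log2 scale, SE 0.152, limma adjusted p = 0.292). Mat1a, an S-adenosylmethionine synthetase gene, was at 1118, 1190 and 1181 in WT and at 711, 709.7, 709.3 and 1307 in null pools. Null 4 lay above every WT pool and the other null pools lay below (-0.49, SE 0.231, limma adjusted p = 0.489). Of 4 lysine methyltransferase genes that the symbol rule leaves out, 1 had an unadjusted p under 0.05 upward and 1 downward. The downward one, Ezh2, the H3K27 methyltransferase of Polycomb, was at 62273 ± 9810 and 51095 ± 3481 (-0.28, SE 0.0994, limma adjusted p = 0.366), with overlap. The upward one, Setmar, a SET gene reported to act on H3K36, was at 853 ± 224 and 1217 ± 126 (0.54, SE 0.207, limma adjusted p = 0.392). Groups did not overlap in Setmar, higher in null pools, nor in Ezh1, lower there.

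Of the 47 members, 19 have exon bases in common with a neighbouring annotation, which for 18 runs on the opposite strand. The neighbour had values in the table for 5 members. How reads of close paralogs and pseudogenes were assigned was not tested.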

How the data were processed

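Oocyte RNA of 3 WT and 4 Nlrp2-null pools was amplified from both oligo d(T) and random primers before Illumina sequencing, per the labels' protocols. Values of the deposited gene table are a signal per symbol and pool, namely counts divided by 1 size factor per pool, per the labels and the deposited table's own name, with pools named per the file headers. Each value was a whole multiple of its pool's step within 0.01 (100% of values), so whole reads were recovered. The submitters' processing notes list STAR 2.5.0a and TopHat2 2.0.9 as aligners, featureCounts 1.5.0-p1 and HTSeq, then DESeq2 1.22.2, DESeq and HOMER, on GRCm38 and mm10. Which tools made the table, its annotation and its strand setting: not given in the sources used here. A second table of 18430 assembled transcripts was not used, since 104 carry an Ensembl identifier and 0 of these belong to a member.

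The main test was limma 3.58.1 (R 4.3.3) on log2(normalized count + 1), with trended variances, over the 15071 genes with a mean of at least 10, called at a Benjamini-Hochberg adjusted p under 0.05 over all of them. Fold changes are on this scale; the added 1 shrinks those of low genes, while a mean of logs gives a single low pool more weight than a ratio of means does (Prdm9 -1.27 here, -0.93 in edgeR). edgeR 4.0.16 and DESeq2 1.42.0 on recovered reads were alternatives; limma called 10, edgeR 7 and DESeq2 188 genes of the whole table. Reads are amplified, so limits from counts cover counting error only. On simulated data of 14778 genes limma made 102 calls, 4 of them false, and recovered 20% of 1.5-fold, 44% of 2-fold and 62% of 4-fold changes. The labels give 3 to 4 mice per pool but do not say whether pools shared collection days, and no pools of a group agreed within sampling noise (their smallest chi-square was 38.4 per degree of freedom). Positions, exon lengths and overlaps came from GENCODE for GRCm38.

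One tested member enters the counts but is not reported here by itself. Members and lists were chosen with earlier results of these data known. Per-pool values were given for members with an unadjusted p under 0.05, filled to 6 by smallest p, and for the member with the highest mean in each class. The 2 genes with the smallest p in each partner list were named. Kmt2a, Setd7, Suv420h1 and Ehmt2 were described after their values were seen.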

Additional observations from a re-analysis of the deposited data

Results flagged for a closer look

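In 6 of 45 tested members 1 null pool stood apart from the other 3 by a gap above Dixon's 95% critical value, which chance does in about 1 of 20 groups of normally spread values. Over all 15071 tested genes 8.23% did so, with 15.2% of those averaging under 100 and 5.35% of those averaging at least 1000. Smyd2 was lowest in null 3, at 214 normalized counts. Prdm12 and Suv420h2, both rare, were highest in null 3, at 99.1 and 64.7. Prdm10 was highest in null 4, at 2138, and Setd3 was lowest there, at 3334. Prdm14 was highest in null 2, at 32.8, where 2 of the other null pools were at 0.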

How the results depend on the processing

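In all 19 alternatives limma, edgeR or DESeq2 called 0 members, and 16 to 26 of the tested members were positive. Of 14 members with per-pool results, 11 kept their sign in every alternative run. Among the 14 were the 6 chosen by smallest p in these same data, a choice that favours a steady sign. Setd8 turned to -0.027 with the cumulus marker mean as covariate, -0.040 with equal medians, -0.0073 with the replicate block and -0.012 without null 3 and null 4, and ran from -0.0073 to 0.061 when each pool was left out in turn. Setdb1 turned to -0.034 with equal medians and ran from -0.047 to 0.11 with a pool left out. Nsdhl turned to 0.016 with the library-number range as covariate and 0.050 without null 3 and null 4, and ran from -0.16 to 0.089. The members' median was 0.017 with the cumulus covariate, -0.069 with equal medians, 0.019 with the range covariate and 0.048 without null 3 and null 4, and -0.025 to 0.025 with a pool left out. Members without overlap numbered 1 with equal medians (9.56% of all genes) and 11 without null 3 and null 4 (24.2%), and 3 to 9 with a pool left out (14.2% to 21%). Among these were 9 without null 2 or without WT 1, 6 without WT 3, 5 without null 3 and 4 without WT 2. Fewer pools make overlap rarer by construction. Members with an unadjusted p under 0.05 numbered 2 to 5 with a pool left out, the 5 without null 2. Called partner genes numbered 1 in DESeq2, 1 with the cumulus covariate and 1 with the robust trend, and 0 to 1 with a pool left out (1 without null 4); the cause was not tested. The replicate block of same-numbered pools gave 0 called members and a median of -0.00052. Correlations of same-numbered pools were -0.163, 0.0192 and -0.0121, and those of other pools ran from -0.101 to 0.174. These values show no pairing by number, but so few pools cannot exclude it. Overlap was not counted anew for pseudocounts, the robust trend and covariates, and Prdm13 had no value in the stricter filter. For the 16 members with a mean under 1000 depth and spread leave wide intervals.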
